A study of Zea mays with 11 samples.

Results

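The copper-responsive microRNA (miRNA) genes zma-MIR398a, zma-MIR398b, zma-MIR408b, zma-MIR528a and zma-MIR528b were followed in maize anthers. They are the rows of the deposited count table whose identifier starts with zma-MIR398, zma-MIR408 or zma-MIR528, 5 of 44474 rows in all and 5 of 154 miRNA rows. RNA-seq covered anthers of the pam1 mutant (3 libraries) and of the wild-type A344 inbred (3 libraries), both labelled Prophase I, the stage of meiosis in which homologous chromosomes pair. PAM1 is a protein with an RNA recognition motif. For the mutant the labels give neither its allele nor the line it was bred in. The series also holds antibody pull-downs of PAM1-bound RNA from A344, which were not used here. The labels do not say whether replicates were separate plants, so the p-values measure the spread between these libraries, which may be partly technical.

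Plants with too little copper make more of several miRNAs that cut the mRNAs of dispensable copper proteins, which spares copper for plastocyanin and other essential proteins. In Arabidopsis the transcription factor SPL7 switches on the genes of miR397, miR398, miR408 and miR857 under low copper. In plants, miR398 targets mRNAs of copper/zinc superoxide dismutases and their copper chaperone, and miR408 targets mRNAs of plantacyanin and laccases. The miR528 family belongs to monocots. In rice its targets include an ascorbate oxidase mRNA, and in maize they include laccase mRNAs. The values below are reads of total RNA that fell on the miRNA genes, whose primary transcripts are processed into the mature miRNA. Mature miRNA was not measured.

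The libraries held 1918457 to 2595247 counts, and a tested row had a median of 57 counts in a library. Levels are given as CPM, in which each library's counts are scaled to the same total. The files name no marker gene of the anther other than miRNA rows. Of the phased small RNA triggers of grass anthers, MIR2275c had 77 counts in pam1 and 2 in A344, the other MIR2275 rows together 15 in pam1 and 12 in A344, and the MIR2118 rows 8 in pam1 and 14 in A344. All 5 copper-responsive rows matched a RefSeq gene of the same name, on Zm-B73-REFERENCE-NAM-5.0. There, MIR398a, MIR398b and MIR408b each lie inside a long noncoding RNA gene (LOC118476385, LOC100274660 and LOC115032969), while no other gene spans MIR528a or MIR528b. Strand was not compared, so a spanning gene need not be the source of the miRNA transcript. The sources used here do not say whether reads of such a spanning gene were counted in the miRNA row.

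MIR528a and MIR408b rose in pam1 anthers, by about 3.56-fold and 2.69-fold. MIR398a averaged 2.40 times its A344 level but had too few counts for the fit across rows. MIR398b and MIR528b were close to 0 in both groups. The 5 rows together had 188 counts in pam1 and 69 in A344. Of the 5 members, 2 had enough counts to be tested, and both were higher in pam1. Both reached the limit of the low-count filter in all 3 pam1 libraries, MIR408b also in 1 A344 library and MIR528a in 0, so their passing the filter depended on pam1 and this count is a description only. Over all 18491 tested rows, 14.9% were called, 8.18% as higher and 6.68% as lower in pam1. A row was called at a Benjamini-Hochberg adjusted p under 0.05 in edgeR's quasi-likelihood test. In bulk anthers, more transcript per cell and more cells of a type that makes it cannot be told apart. Since the line of the mutant is not given, the mutation and a difference between lines cannot be told apart either.

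**Figure D1:**
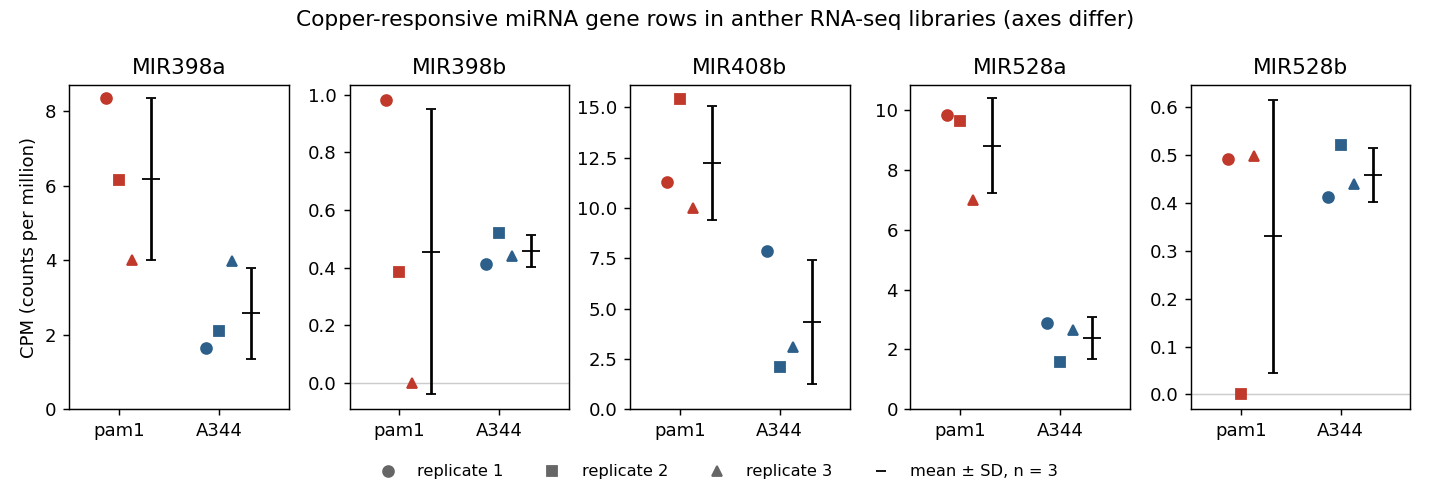
Level of each of the 5 miRNA gene rows in CPM (vertical axis, a separate scale per panel) in pam1 and A344 anthers. Symbols are the 3 libraries of each group, and black marks are the mean ± SD. MIR528a and MIR408b separate the groups, MIR398a does so only narrowly and not under every scaling, with 3.99 CPM in pam1 replicate 3 and 3.96 CPM in A344 replicate 3, and MIR398b and MIR528b stay under 1 CPM.

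MIR528a had 20, 25 and 14 counts in pam1 replicates 1 to 3, and 7, 3 and 6 counts in A344 replicates 1 to 3. On the CPM scale this was 9.83, 9.63 and 6.99 in pam1 and 2.89, 1.56 and 2.64 in A344. Every pam1 library stood well above every A344 library. The mean was 8.82 ± 1.59 CPM in pam1, against 2.37 ± 0.706 CPM in A344 (± SD, n = 3 each). The log2 fold change was 1.83 ± 0.36 (SE; edgeR adjusted p = 0.00369). The ratio of summed counts, scaled by library totals, was 3.67 with a 95% interval of 2.09 to 6.84. This interval and those that follow cover counting error only. The call held in each of the 14 alternatives tried, with log2 values of 1.64 to 1.98 and adjusted p of 0.000380 to 0.0349. The SDs, 1.59 CPM in pam1 and 0.706 CPM in A344, lay below the spread that counting alone would give, 2.01 CPM in pam1 and 1.04 CPM in A344.

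MIR408b, the highest of the 5 rows in counts, had 23, 40 and 20 counts in pam1 and 19, 4 and 7 counts in A344, in replicate order. Its levels were 11.3, 15.4 and 9.99 CPM in pam1 and 7.85, 2.09 and 3.08 CPM in A344. The groups did not overlap, but A344 replicate 1 stood far above the other A344 libraries and near the lowest pam1 library. The mean was 12.2 ± 2.83 CPM in pam1, against 4.34 ± 3.08 CPM in A344 (± SD, n = 3 each). The log2 fold change was 1.43 ± 0.39 (SE; edgeR adjusted p = 0.0243), and the ratio of summed counts was 2.76 (95% interval 1.80 to 4.34). The SD in pam1, 2.83 CPM, was close to the 2.37 CPM that counting alone would give, and the SD in A344, 3.08 CPM, exceeded the 1.41 CPM from counting. Without A344 replicate 1 the log2 fold change was 2.18 (edgeR adjusted p = 0.00356). The call was lost without pam1 replicate 1 (edgeR adjusted p = 0.0562) or 2 (0.119), without A344 replicate 2 (0.0584) or 3 (0.0948), and under DESeq2 (0.0726), within a range of 0.000739 to 0.119 over 14 alternatives.

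**Figure D2:**
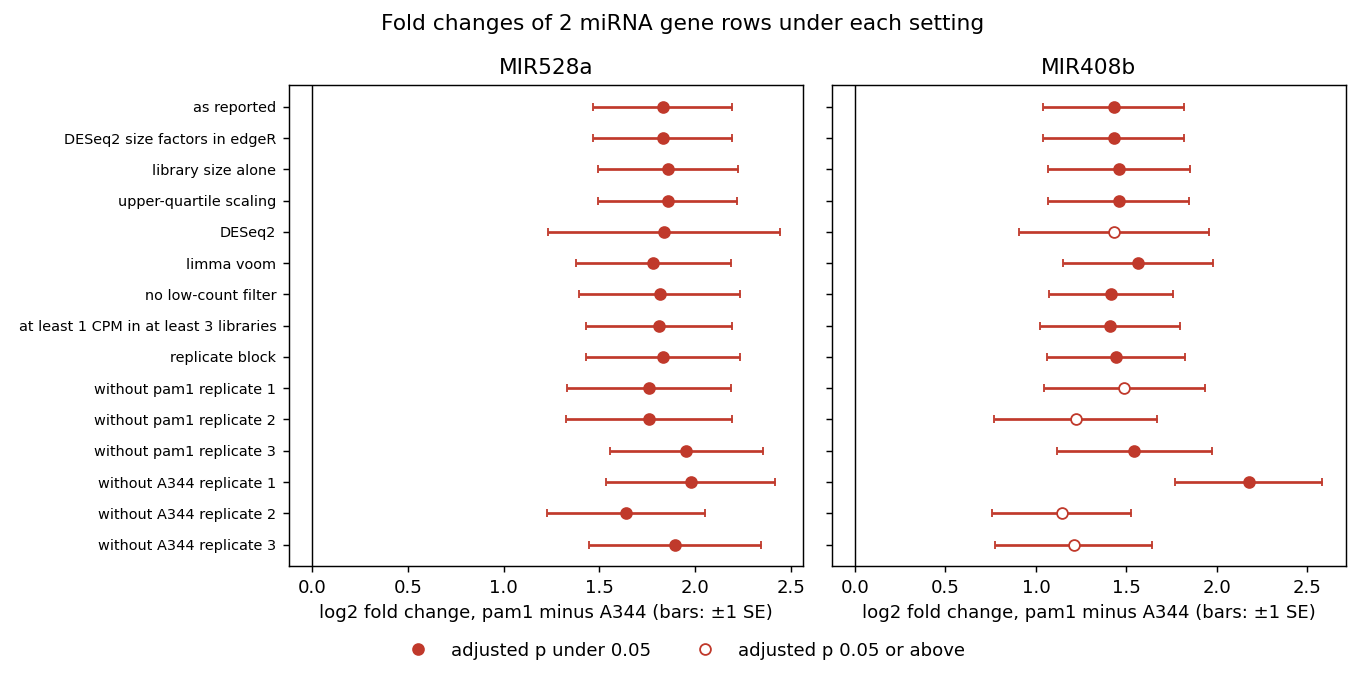
Log2 fold change, pam1 minus A344 (horizontal axis), of MIR528a and MIR408b as reported and under each alternative setting (rows). Points are estimates with bars of ±1 SE, filled where the adjusted p was under 0.05. All points lie to the right of 0, MIR528a between 1.64 and 1.98 with every point filled, and MIR408b between 1.14 and 2.18 with 5 open points.

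MIR398a had 17, 16 and 8 counts in pam1 and 4, 4 and 9 counts in A344, in replicate order. On the CPM scale it stood at 8.35, 6.17 and 3.99 in pam1 and at 1.65, 2.09 and 3.96 in A344. The groups meet at replicate 3 of each, where pam1 and A344 were practically equal, while pam1 replicates 1 and 2 were higher than all A344 libraries. On TMM-scaled library sizes replicate 3 held 4.08 CPM in pam1 and 4.05 CPM in A344. On DESeq2 size factors it held 3.92 CPM in pam1 and 3.95 CPM in A344, so the groups then overlapped (exact two-sided permutation p = 0.2). The mean was 6.17 ± 2.18 CPM in pam1, against 2.57 ± 1.23 CPM in A344 (± SD, n = 3 each; exact two-sided permutation test over libraries, p = 0.1, the smallest that 3 against 3 allows). With signs flipped within replicate numbers the exact p was 0.25, the smallest that 3 pairs allow, and pam1 was the higher in 3 of 3 pairs. On library totals, every pam1 library exceeded every A344 library in both tested members, MIR408b and MIR528a, and in 17.3% of all tested rows. The ratio of summed MIR398a counts was 2.40 (95% interval 1.34 to 4.51).

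The MIR398a row stayed out of the fit because fewer than 3 libraries reached the count limit of the low-count filter. In an edgeR fit with no such filter its log2 fold change was 1.21 ± 0.46 (SE; edgeR adjusted p = 0.0659), and 1.21 with the replicate number as a block (edgeR adjusted p = 0.0507). In that unfiltered fit the median log2 fold change over the 5 members was 1.21, the value of MIR398a itself. It was 0.86 over the 86 other miRNA rows with a count, of which 7 had at least 20 counts. Over all rows with a count it was 0.10. Folds of rows with only a few counts are poorly determined, so these medians are a description only. In the same fit, 2 of the 5 members were higher (MIR528a and MIR408b again), against 6.24% of all 36964 rows with a count. The log2 ratio of mean CPM of MIR398a ranged from 0.98 to 1.72 when single libraries were left out. It could not turn negative, since on library totals every pam1 library exceeded every A344 library.

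MIR398b had 2, 1 and 0 counts in pam1 and 1 in each A344 library. MIR528b had 1, 0 and 1 counts in pam1 and 1 in each A344 library. With 6 and 5 counts over all libraries, neither row can show a difference at this depth, and no fold is given. With its partner added, MIR398 had 44 counts in pam1 and 20 in A344 (ratio 2.19, 95% interval 1.27 to 3.93). Its libraries then overlapped, since pam1 replicate 3 held 3.99 CPM and A344 replicate 3 held 4.41 CPM. MIR528 had 61 counts in pam1 and 19 in A344 (ratio 3.20, 95% interval 1.89 to 5.67), with no overlap. The sources used here do not say how reads matching both copies of a family were assigned.

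Summed over the 5 rows, levels were 31.0, 31.6 and 21.5 CPM in pam1 and 13.2, 6.78 and 10.6 CPM in A344, in replicate order. The mean was 28.0 ± 5.67 CPM in pam1, against 10.2 ± 3.24 CPM in A344 (± SD, n = 3 each), and the ratio of summed counts was 2.71 (95% interval 2.05 to 3.63). No p is given for this sum, because the rows were grouped with earlier results of these data known. Leaving out any 1 library or any 1 row left the ratio of means between 2.35 and 3.23. Leaving out a library could not reverse it, since every pam1 sum lay above every A344 sum. MIR398b and MIR528b held only 6 and 5 counts, so leaving out either could change little. The other 149 miRNA rows were also higher as a sum, at 98.3, 89.0 and 86.4 CPM in pam1 and 57.4, 31.8 and 50.2 CPM in A344. The mean of this sum was 91.2 ± 6.25 CPM in pam1, against 46.5 ± 13.2 CPM in A344 (± SD, n = 3 each). Whether the copper-responsive rows differed more than the other miRNA rows was not tested. Of those 149 rows, 5 were tested in the fit across rows, of which 3 were higher in pam1 and the other 2 did not pass. The 3 were MIR2275c, MIR159g and MIR159b. In A344 they averaged 0.285, 3.76 and 3.70 CPM, under the 4.65 CPM limit of the low-count filter. Their passing the filter thus depended on pam1, and this count too is a description only. Over all tested rows, 8.18% were called higher in pam1.

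The make-up of the summed counts varied between libraries, most of all in A344, where the 5 rows held 32, 13 and 24 counts in replicate order. MIR408b held 44.1% of the 5-row counts in pam1 (95% exact binomial interval 36.9 to 51.6) and 43.5% in A344 (31.6 to 56.0). By library its share was 36.5%, 48.8% and 46.5% in pam1 and 59.4%, 30.8% and 29.2% in A344, in replicate order. Without A344 replicate 1 the A344 share of MIR408b was 29.7%. MIR398a held 21.8% in pam1 (16.1 to 28.4) and 24.6% in A344 (15.1 to 36.5). MIR528a held 31.4% in pam1 (24.8 to 38.5) and 23.2% in A344 (13.9 to 34.9). The pooled intervals of MIR528a overlap. Its share was 30.5% to 32.6% in the pam1 libraries and 21.9% to 25% in the A344 libraries. The A344 shares rest on 7, 3 and 6 MIR528a counts. Their exact binomial 95% intervals, 9.28 to 40.0, 5.04 to 53.8 and 9.77 to 46.7 in replicate order, each take in the pam1 shares. All these percentages are shares of counts and are not scaled by transcript length, so they do not rank the genes by level. The intervals of the ratios of MIR528a, MIR408b and MIR398a overlap, and the differences between their folds were not tested.

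Within the groups the order of the libraries was shared in part between rows. Apart from MIR408b in A344, the SDs were below or not far above those that counting alone would give. For MIR398a they were 2.18 CPM in pam1 and 1.23 CPM in A344. Counting alone would give 1.68 CPM in pam1 and 1.08 CPM in A344. In pam1, replicate 3 was the lowest library for each of MIR398a, MIR408b and MIR528a. On the log2 scale its difference from the group mean was −0.56, −0.27 and −0.32. The order of pam1 replicates 1 and 2 differed between rows: replicate 2 was the higher for MIR408b, and replicate 1 for MIR398a and MIR528a. In A344, replicate 2 was below the group mean for all 3 rows and the lowest for MIR408b and MIR528a. There MIR398a, MIR408b and MIR528a had only 4, 4 and 3 counts. The sum of the other 149 miRNA rows was lowest in the same libraries, pam1 replicate 3 and A344 replicate 2. These libraries also had the lowest totals of their groups, 2002784 and 1918457 counts.

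MIR398a and MIR408b went opposite ways in the remaining A344 libraries. In A344 replicate 1, the difference from the group mean on the log2 scale was 1.09 for MIR408b and −0.53 for MIR398a. In A344 replicate 3, it was 0.73 for MIR398a and −0.26 for MIR408b. For MIR398a these differences rest on 4 counts in A344 replicate 1 and 9 counts in A344 replicate 3. The counts of MIR408b per count of MIR528a ran from 1.15 (replicate 1) to 1.6 (replicate 2) in pam1, and from 1.17 (replicate 3) to 2.71 (replicate 1) in A344. For MIR398a the same quotient ran from 0.571 to 0.850 in pam1 and from 0.571 to 1.5 in A344. Both quotients spread more widely in A344, where they rest on 3 to 7 MIR528a counts. No correlation is given, since the 6 libraries form 2 groups of 3, and whether the rows vary together beyond the group difference was not tested. Without pam1 replicate 3, the log2 fold change was 1.96 for MIR528a (edgeR adjusted p = 0.00600) and 1.54 for MIR408b (edgeR adjusted p = 0.0309).

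**Figure D3:**
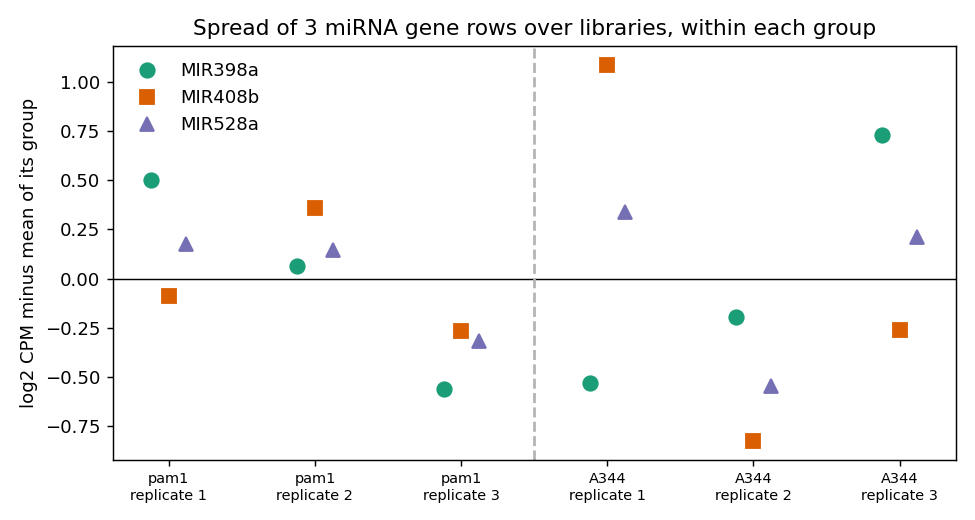
Log2 CPM of MIR398a, MIR408b and MIR528a in each library minus the mean of its group (vertical axis), with the 3 pam1 libraries left of the dashed line and the 3 A344 libraries right of it. All 3 rows lie below 0 in pam1 replicate 3 and in A344 replicate 2, whereas MIR408b (1.09) and MIR398a (−0.53) part in A344 replicate 1.

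Among the 7 other miRNA rows with at least 20 counts, MIR159b, MIR159g and MIR399d had the profiles most like that of the 5-row sum. Likeness was the root mean square difference between log2(CPM + 1) profiles over the 6 libraries, each centred on its own mean. It was 0.16 for MIR159b, 0.29 for MIR159g and 0.37 for MIR399d, and the least alike was MIR2275c at 0.94. For the members themselves, which are part of the sum, it was 0.12 for MIR528a, 0.28 for MIR408b and 0.45 for MIR398a. MIR159b averaged 10.4 CPM in pam1 and 3.70 CPM in A344. MIR399d, of a family induced by phosphate starvation in plants, averaged 2.92 CPM in pam1 and 1.02 CPM in A344 and had too few counts to be tested.

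The MIR397 family, the other copper-responsive family with rows in the table, was too low to compare. MIR397a had 1 count in pam1 and 0 in A344, and MIR397b had 5 counts in pam1 and 3 in A344. Neither of these 2 rows passed the low-count filter. Genes of copper proteins could not be followed, because 0 of the 44146 Zm00001d identifiers in the table matched a gene name.

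In the count table, some rows beside MIR528a changed the same way and others did not. The table lists miRNA rows among Zm00001d rows whose numbers mostly ascend, with some out of sequence. Of the 4 rows within 2 places of MIR528a, 3 were tested, and 2 of them rose in pam1. Both come directly before it, Zm00001d027487 and Zm00001d027488, and were picked out after their values were seen. Zm00001d027488, the adjacent row, stood at 57.0, 62.4 and 59.9 CPM in pam1 and at 4.13, 12 and 7.05 CPM in A344, in replicate order. Its groups lie far apart, and its log2 fold change was 2.97 ± 0.25 (SE; edgeR adjusted p = 6.20e-06). For Zm00001d027487 the log2 fold change was 1.73 ± 0.22 (SE; edgeR adjusted p = 0.000123). The row directly after MIR528a was not called, at −0.09 ± 0.27 (SE; edgeR adjusted p = 0.880). Within 10 places of MIR528a, 2 of 9 tested rows were higher and 1 was lower. The lower row, 10 places after MIR528a, had 18 counts in pam1 and 176 in A344. Untested rows 8 and 9 places after MIR528a had 15 and 47 counts in pam1 and 0 in A344. The remaining untested rows of this window had at most 20 counts in either group. These rows too were picked out after their values were seen, and no share over all rows was computed for such patterns. Over all tested rows 8.18% were higher and 6.68% lower. Whether reads of a neighbouring transcript fall on the MIR528a row was not tested.

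Log2 fold changes of the 8 tested rows within 2 places of the other 4 members ran from −0.14 to 0.49. Their edgeR adjusted p were 0.150 or more. Of the 8, 2 had an unadjusted edgeR p under 0.05, a limit for which no share over all rows was computed. Within 10 places of MIR398a, 5 of 12 tested rows were lower in pam1 and 1 was higher, while MIR398a itself averaged 6.17 CPM in pam1 and 2.57 CPM in A344. Over the 5 stretches together, 5 of 40 tested rows were higher and 6 lower. Over all tested rows the shares were 8.18% higher and 6.68% lower. These windows were chosen after values were seen.

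**Figure D4:**
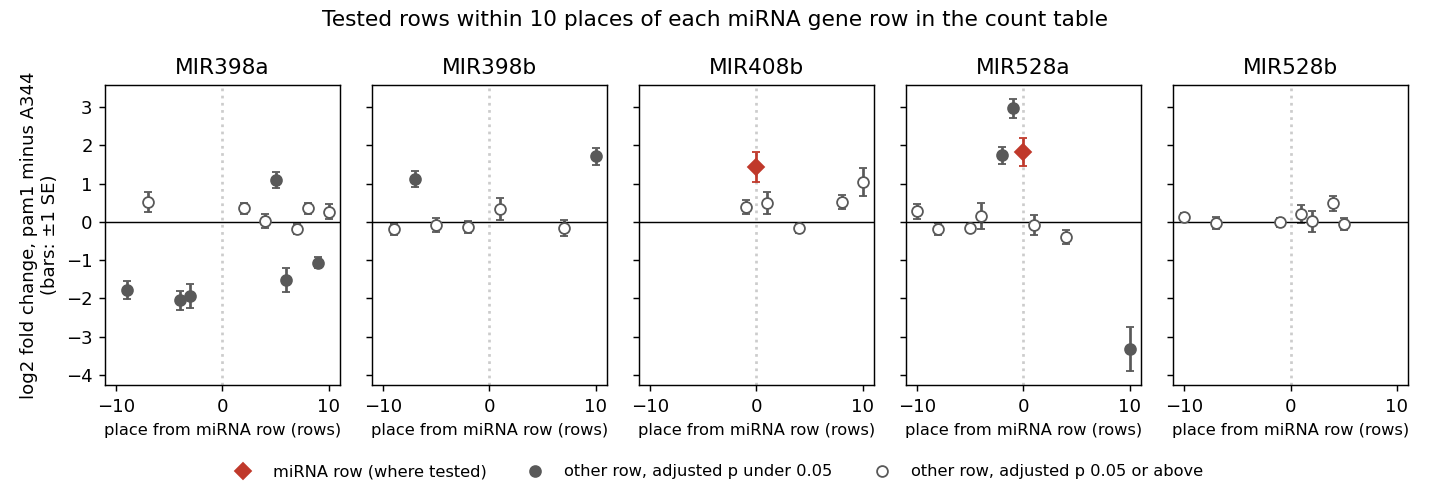
Log2 fold change, pam1 minus A344 (vertical axis, bars ±1 SE), of every tested row within 10 places of each miRNA row in the count table (horizontal axis, place in rows). Diamonds are miRNA rows that were tested and circles other rows, filled where the adjusted p was under 0.05. The 2 rows just before MIR528a lie at 1.73 and 2.97 beside its own 1.83, and the row just after it lies at −0.09. The tested rows next to MIR408b are open and lie nearer to 0 than its 1.43.

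In the authors' deposited table, which gives log2 values of A344 over pam1, the value was −1.84 for MIR528a (adjusted p = 0.0349), −1.43 for MIR408b (adjusted p = 0.0726) and −1.22 for MIR398a (adjusted p = 0.356). That table rests on the same counts, and of the 5 rows MIR528a alone passes an adjusted p of 0.05 in it. It lists no adjusted p for MIR398b and MIR528b.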

How the data were processed

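Anther RNA-seq of pam1 (3 libraries) and A344 (3 libraries) was analysed. Per the labels' protocols, a directional kit was used on total RNA. The deposited counts are whole numbers per row, not normalized. The submitters' processing notes name STAR, DESeq2, Bowtie2 2.4.5 and MACS2 but give no roles. The sources used here do not give the program that counted reads, whether it used strand, or how it handled reads with several matches. The authors' deposited comparison table holds a mean signal (counts over size factors), log2 fold changes, Wald scores and p-values, per the file headers.

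The whole table was fitted with edgeR 4.0.16 in R 4.3.3 (TMM, default filterByExpr, two-sided quasi-likelihood test), as pam1 minus A344. That test gives no SE, so each edgeR SE is the size of the log2 fold change over the square root of the test's F value. For MIR528a it was 0.36, and the SE from DESeq2 was 0.60. Alternatives used DESeq2 1.42.0, limma 3.58.1 voom, other scalings and filters, and left out each library. A ratio of summed counts was given from 20 counts upward, with an exact conditional 95% interval. CPM use library totals without TMM factors. Python 3.11.15 served for the rest, with pandas 2.3.3, scipy 1.17.1, matplotlib 3.10.9 and numpy 2.4.6. The edgeR step was tested on simulated counts. No pair of libraries in a group was a duplicate (chi-square per degree of freedom 2.10 to 5.75).

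Libraries of the same number deviated together weakly. Across tested rows their deviations from the group mean correlated at 0.13, 0.12 and 0.13 for replicates 1 to 3. These values were over the limit of 0.1 set for pairing. Libraries of unlike number correlated at −0.145 to 0.017. Because deviations are centred within each group, all these values depend on each other. The pairing by number comes from the data, and the labels give no shared origin. The reported fit is unpaired, with the paired fit as an alternative. The members and lists were chosen with earlier results of these data known. Named rows were the 5 members, MIR397, MIR2275 and MIR2118 rows, and the 3 other miRNA rows with at least 20 counts most like the 5-row sum. Zm00001d027487 and Zm00001d027488 were named after their values were seen, and other neighbouring rows were left unnamed. Promoter motifs and copper protein genes were not analysed here.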

Additional observations from a re-analysis of the deposited data

How the results depend on the processing

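A replicate block raised the number of changed rows to 3352, and MIR528a (log2 1.83, edgeR adjusted p = 0.00471) and MIR408b (log2 1.44, edgeR adjusted p = 0.0152) kept their calls; the block changed no call of a member. Over 70 alternative values of members and sums, none reversed. Where every pam1 library lay above every A344 library on library totals, leaving out a library could not reverse a ratio of mean CPM. For MIR408b the call was lost under DESeq2 (log2 1.43; the cause was not tested), and leaving out single libraries gave 1.14 to 2.18. In all, 2748 rows changed, 1513 higher and 1235 lower. At an adjusted p under 0.01 the numbers were 1432 changed, 836 higher and 596 lower, and requiring a log2 change of 1 or more in size they were 1359, 851 and 508, fewer by construction. Dropping the filter on low counts gave 2305 higher rows, of which 1468 were also higher with it, 574 had not been tested and 263 had been tested without being called. Leaving out 1 library gave 1768 to 2917 changed, 1040 to 1567 higher and 723 to 1350 lower rows, with fewer samples in each fit; without pam1 replicate 1 there were 1768 changed and 728 lower rows, and without pam1 replicate 2 there were 723 lower rows. For MIR398a, alternatives added after the data were seen gave an adjusted p of 0.356 (DESeq2) and 0.0944 (1 CPM filter) and an exact sign-flip p of 0.25. Depth limits the group: 3 of its 5 rows had too few counts for the fit across rows, and intervals cover counting error only.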
